A study of Homo sapiens with 24 samples.

Results

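The genes ZEB1, ZEB2, SNAI2, VIM, CDH2, FN1, TNC, SPARC, DCN and LOXL2 were followed in A2780 cells, an established human ovarian cancer line, as markers and regulators of the mesenchymal state. They are 10 of the 11940 genes that had a probe set with a single symbol. They were chosen by name, with earlier results of these data known. Each gene was read from 1 probe set, that of highest mean over the 24 arrays, and the 10 genes had 27 probe sets in all. RNA from cells expressing Rab25, a small GTPase of endosome recycling, was set against RNA from cells carrying the empty vector pcDNA, with 12 arrays a line. In each line 2 arrays were of cells given EGF (10 ng/ml), 2 of IGF (10 ng/ml), 2 of TGF beta (5 ng/ml) and 2 of FBS, fetal bovine serum (5%), all after 8 h without serum, and 4 were of starved cells without addition. All cells were thus transfected and starved, and both lines are A2780 derivatives. Each group was split evenly over experiment 1 and experiment 2. The treatment protocol gives 8 h of exposure for experiment 1 and 24 h for experiment 2, whereas the source names give 24 h for both, and the conflict was not settled. Each line was 1 transfected line, so other differences between the cultures cannot be told apart from Rab25. The design text calls the samples independent without naming separate cultures, and the p-values measure the spread between these arrays, which may be technical. All values are log2 signals as deposited, and each treatment is compared with the same starved arrays, so the 4 treatment comparisons share their controls.

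Epithelial to mesenchymal transition (EMT) is the programme by which cells give up epithelial adhesion and take on a motile, matrix-producing state. The zinc-finger repressors ZEB1, ZEB2 and SNAI2 drive it by binding E-box sequences in promoters of epithelial genes such as CDH1, which encodes E-cadherin. VIM, an intermediate filament protein, and CDH2, N-cadherin, mark the cells that result, and FN1, TNC, SPARC, DCN and LOXL2 encode proteins of the extracellular matrix or, for LOXL2, an enzyme that crosslinks it. TGF beta is the best known inducer of the programme.

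The targeted gene was at its label: RAB25 averaged 8.65 ± 0.30 in Rab25 cells and 5.26 ± 0.25 in pcDNA cells (log2 signal, SD, n = 12 each), a fitted difference of 3.33 (SE 0.09, limma adjusted p = 2e-13). The median signal of an array lay between 7.86 and 8.24. Between both starved replicates of a line within an experiment, the differences had an SD over genes of 0.144 to 0.173. As a sign of RNA quality, actin control probe sets at the 3' end exceeded those at the 5' end by 0.63 to 1.07 in Rab25 arrays and by 0.67 to 1.17 in pcDNA arrays. The ovarian lineage factor PAX8 (11.18 to 12.35) and the keratin KRT8 (12.49 to 12.95) had signal on every array, while MUC16, the gene of the ovarian tumour antigen CA125, was at 4.82 to 5.16. CDH1 was at 5.21 to 5.76, and 10 genes of other tissues, taken as a guide to background, spanned 4.75 to 5.89.

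The FBS arrays stood apart from the others. On the axis that separates the starved arrays of experiment 2 (set at 1) from those of experiment 1 (set at 0), taken from the other line, the experiment 1 FBS array lay at 0.48 in Rab25 cells and at 0.83 in pcDNA cells. The other 10 arrays of experiment 1 lay between -0.09 and 0.07, and the experiment 2 arrays between 0.58 and 0.72 in Rab25 cells and between 0.95 and 1.02 in pcDNA cells. Both Rab25 FBS arrays also carried markers of other cell types. Of the 15 measured fibroblast and stroma markers 6 were above all other 22 arrays on both, and their summed signal (log2 of the sum) was 14.1 and 12.6 on the Rab25 FBS arrays and 9.96 to 11.4 on the others. LUM, which encodes the collagen-binding proteoglycan lumican, was at 10.5 and 7.57 there, against 4.54 to 4.85 elsewhere. Of the macrophage markers 6 of 10 were above all others on both arrays. Their summed signals of 13.2 and 13.1 lay inside the 12.6 to 13.5 of the other arrays. That sum rests mainly on LAPTM5, at 12.5 to 13.4 on the other arrays, so it says little of the other macrophage markers. The mean macrophage signal was above the 6.29 to 6.50 of the other arrays on both, with 6.89 on replicate 2 and more on replicate 1. Of the breast epithelium markers 2 of 13 were above all others on both arrays (summed signals of 11.96 and 10.6, against 9.73 to 10.2). Among the adipocyte markers 2 of 8 were (8.99 and 10.9, against 8.48 to 8.86). Of the endothelial markers 0 of 8 were (12.6 and 12.2, against 11.8 to 12.8), and of the blood markers 3 of 8 (9.74 and 9.81, against 9.48 to 10.3). Of the 10 genes taken as a guide to background 0 were. The share of all genes above the other 22 arrays on both Rab25 FBS arrays was not counted, so these counts cannot be set against it. The epithelial gene EPCAM was at 8.49 in Rab25 FBS replicate 1 and at 4.94 to 5.29 on the 22 arrays of other groups. In these bulk samples a change in the number of cells of a type and a change in RNA per cell cannot be told apart. Called member differences between the lines are given without these arrays too, and the FBS results name the calls in pcDNA cells alone.

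**Figure D1:**
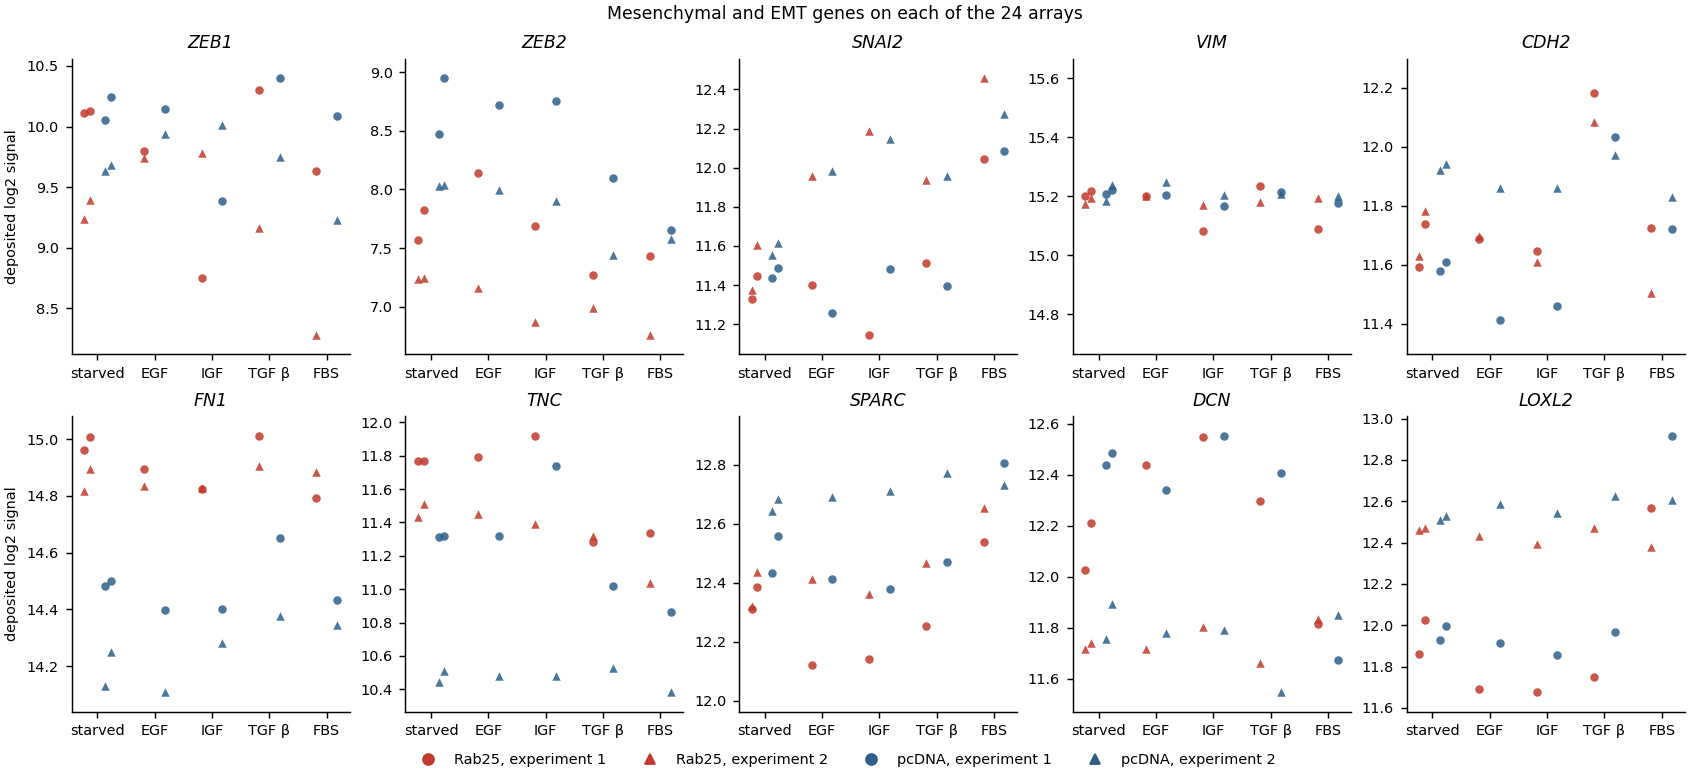
Deposited log2 signal (vertical axes, scaled to each gene) of the 10 genes on all 24 arrays, by condition (horizontal axes), line (colour, Rab25 left of pcDNA) and experiment (symbol). FN1 is the gene whose 12 Rab25 arrays (14.79 to 15.01) all lie above the 12 pcDNA arrays (14.11 to 14.65), and VIM stays between 15.08 and 15.25 throughout.

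The comparison of the lines asks which of these genes differ where Rab25 is expressed. The matrix genes FN1 and TNC were higher in Rab25 cells, and the repressor gene ZEB2 and the matrix gene SPARC were lower. In all, 4 of the 10 genes passed limma's adjusted threshold of 0.05, where 24.7% of all genes tested did. Of these 2 were higher and 2 lower, against 9.14% of all genes higher and 15.5% lower. VIM, CDH2 and SNAI2 had fitted differences within 0.03 of 0. For CDH2 this averages unlike experiments, with differences of 0.002 to 0.27 over the conditions of experiment 1. In experiment 2 they were -0.33 to -0.17, except with TGF beta (0.11).

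FN1 encodes fibronectin, the adhesive glycoprotein that integrins bind. Its log2 signal ran from 14.79 through a median of 14.89 to 15.01 on the Rab25 arrays and from 14.11 through 14.39 to 14.65 on the pcDNA arrays. Every Rab25 array was above every pcDNA array, which held for 1 of the 10 genes and, in either direction, for 1.51% of all genes. The fitted difference was 0.51 (SE 0.04, limma adjusted p = 1.34e-07), or 1.43-fold, and FN1 was higher in all 10 cells of condition and experiment, by 0.36 to 0.73. It was higher by 0.60 in experiment 2 alone and by 0.43 in experiment 1 alone. Each treated group held 1 array in these fits, so their spread came from the starved pairs and is not given.

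TNC encodes tenascin-C, a matrix glycoprotein of wounds and tumour stroma. Its signal ran from 11.04 through 11.44 to 11.92 in Rab25 cells and from 10.38 through 10.70 to 11.74 in pcDNA cells, so the lines overlapped. The pcDNA arrays that reached the Rab25 range were the starved, EGF and IGF arrays of experiment 1. The fitted difference was 0.62 (SE 0.09, adjusted p = 6.22e-05), or 1.53-fold, and TNC was higher in all 10 cells, by 0.18 to 0.99. The difference was 0.87 in experiment 2 and 0.37 in experiment 1.

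ZEB2 showed the opposite direction. Its signal ran from 6.76 through 7.26 to 8.14 in Rab25 cells and from 7.44 through 8.03 to 8.95 in pcDNA cells. The lines overlapped, since all pcDNA arrays of experiment 2, and those of experiment 1 with TGF beta or FBS, lay below the highest Rab25 array, that with EGF in experiment 1. ZEB2 fell by 0.76 on the log2 scale (SE 0.08, adjusted p = 1.65e-06), 1.70-fold, and was lower in all 10 cells, with differences of -1.06 to -0.23. In experiment 2 alone the difference was -0.79 and in experiment 1 alone -0.74. A second ZEB2 probe set, 215713_at, was near background and had a difference of -0.01 (SE 0.03), and the median of both gave -0.38. ZEB1, its paralog, was lower in Rab25 cells in all 10 cells as well, by -0.95 to -0.03, with a fitted difference of -0.39 (SE 0.17, adjusted p = 0.12) that did not pass over both experiments. Within experiment 2 it was -0.46 and within experiment 1 -0.31, in fits where each treated group held 1 array.

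SPARC encodes osteonectin, a collagen-binding matrix protein. Its signal ran from 12.12 through 12.37 to 12.65 in Rab25 cells and from 12.38 through 12.66 to 12.80 in pcDNA cells, with overlap. The difference was -0.25 (SE 0.04, adjusted p = 0.000276), or 1.19-fold, of 1 sign in all 10 cells. A second SPARC probe set, 212667_at, gave -0.04 (SE 0.09, adjusted p = 0.812 over all 19415 probe sets), and with the median of the gene's probe sets the SPARC call was lost (-0.14, adjusted p = 0.0977). LOXL2 was lower by -0.35 to -0.02 in the 10 cells, with a fitted difference of -0.17 (SE 0.09, adjusted p = 0.192).

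**Figure D2:**
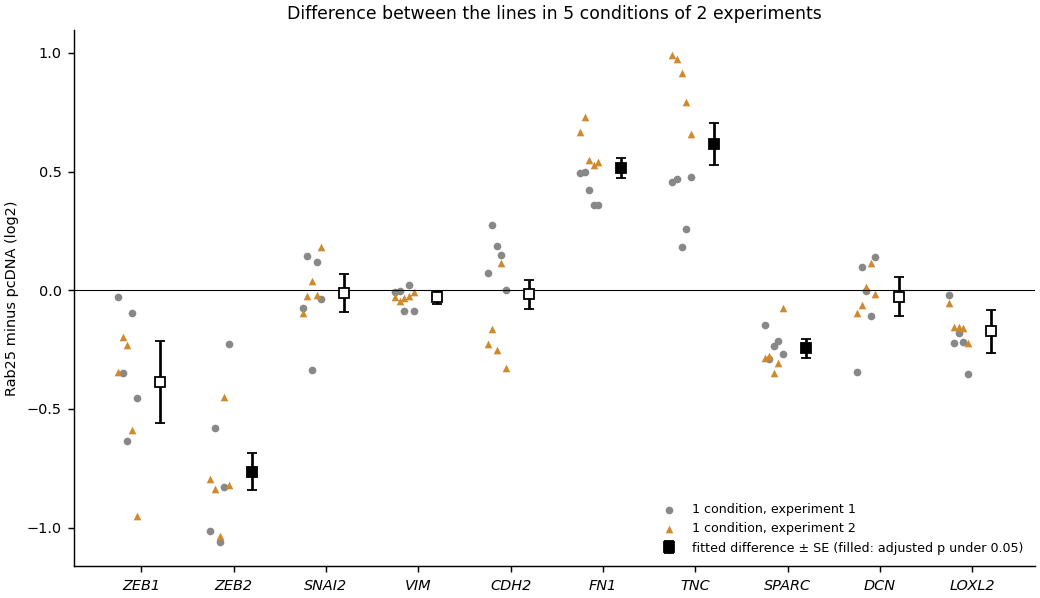
Rab25 minus pcDNA difference of log2 signal (vertical axis) for each gene (horizontal axis), in the 5 conditions of experiment 1 (circles) and experiment 2 (triangles), with the fitted difference ± SE beside them (filled squares passed the adjusted threshold of 0.05). FN1 and TNC lie above 0 and ZEB1, ZEB2, SPARC and LOXL2 below 0 in all 10 cells, and the 2 experiments separate for TNC.

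Without both Rab25 FBS arrays the 4 called differences were 0.53 for FN1, 0.63 for TNC, -0.82 for ZEB2 and -0.26 for SPARC, and each passed. In starved cells alone FN1, TNC, ZEB2 and SPARC passed too, 2 higher and 2 lower, where 14.8% of all genes passed, 5.56% higher and 9.24% lower. ZEB2 was at 7.57, 7.83, 7.24 and 7.24 in starved Rab25 cells and at 8.48, 8.95, 8.04 and 8.03 in starved pcDNA cells. No Rab25 array reached the pcDNA arrays, and the difference was -0.90 (SE 0.13, adjusted p = 0.00021). FN1 and TNC also did not overlap between the starved lines, with differences of 0.58 (SE 0.07, adjusted p = 3.94e-05) and 0.72 (SE 0.15, adjusted p = 0.0034). Separation of these 4 against 4 arrays was seen for 3 of the 10 genes and for 16.9% of all genes. SPARC, at -0.22 (SE 0.07, adjusted p = 0.0438), lost its call in 11 of the 24 fits that left out 1 array, among them each of the 4 pcDNA starved arrays (adjusted p of 0.0599 to 0.116) and all Rab25 starved arrays but replicate 1-1. Without the experiment as replicate block, 1 of the 4 starved calls was left, that of FN1.

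The promoters of the 4 called genes are shown from 250 bases before to 50 bases after the start (RefSeq, GRCh38.p14, minus strand), so that the pair that was higher and the pair that was lower can be set side by side. Promoters of 7 of the 10 genes were found in that table. Capitals mark matches on either strand to the cyclic AMP response element TGACGTCA, the TATA motif TATANAA and the E-box CAGGTG bound by ZEB and SNAI factors. FN1 lies at chr2:215436019-215436318, TNC at chr9:115118108-115118407, ZEB2 at chr2:144520070-144520369 and SPARC at chr5:151686866-151687165.
FN1: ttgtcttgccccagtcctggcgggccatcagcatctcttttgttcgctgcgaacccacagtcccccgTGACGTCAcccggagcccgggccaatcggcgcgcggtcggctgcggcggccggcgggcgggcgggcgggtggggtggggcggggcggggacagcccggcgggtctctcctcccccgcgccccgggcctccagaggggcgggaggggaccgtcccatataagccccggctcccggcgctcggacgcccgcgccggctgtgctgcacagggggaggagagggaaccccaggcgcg
TNC: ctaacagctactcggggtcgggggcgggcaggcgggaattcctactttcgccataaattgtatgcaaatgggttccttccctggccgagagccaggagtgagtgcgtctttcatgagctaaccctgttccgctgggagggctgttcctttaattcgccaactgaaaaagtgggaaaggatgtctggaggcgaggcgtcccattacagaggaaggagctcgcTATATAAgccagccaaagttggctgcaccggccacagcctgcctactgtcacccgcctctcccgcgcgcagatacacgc
ZEB2: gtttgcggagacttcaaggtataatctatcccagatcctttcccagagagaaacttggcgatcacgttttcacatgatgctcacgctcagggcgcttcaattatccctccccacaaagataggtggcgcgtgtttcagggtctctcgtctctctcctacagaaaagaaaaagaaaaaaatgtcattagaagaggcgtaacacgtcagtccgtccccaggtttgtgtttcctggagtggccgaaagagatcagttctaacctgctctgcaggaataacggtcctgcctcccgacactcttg
SPARC: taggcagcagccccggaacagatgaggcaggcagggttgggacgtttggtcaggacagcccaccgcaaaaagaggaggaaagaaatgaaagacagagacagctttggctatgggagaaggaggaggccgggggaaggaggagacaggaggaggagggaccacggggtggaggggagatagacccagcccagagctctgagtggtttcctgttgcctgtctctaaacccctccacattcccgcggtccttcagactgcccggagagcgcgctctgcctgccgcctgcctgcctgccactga
The FN1 window held the cyclic AMP response element at -183 to -176, a sequence found in 1.85% of the 35116 promoters. The TNC window held the TATA motif at -29 to -23, found in 9.10% of them. None of the 4 windows held CAGGTG or its complement CACCTG, which 20.6% of promoters hold. A match is a description of the letters, and its use in these cells was not measured.

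How large the FN1 difference was depended on the probe set. The 6 FN1 probe sets moved together over the 24 arrays (r of 0.96 to 0.99 with the one used). The 4 with mean signals of 14.49 to 14.63 gave differences of 0.46 to 0.62, and these signals lie close to the highest value on each array (15.30 to 15.39). Probe set 214701_s_at, with a mean of 9.18, gave 1.67 (SE 0.08, 3.18-fold) and 214702_at, with a mean of 8.02, gave 2.00 (SE 0.10, 4.01-fold). On 214702_at the signal ran from 8.52 to 9.47 in Rab25 cells and from 6.53 to 7.55 in pcDNA cells (SD of 0.28 and 0.37, n = 12 each). The lines did not overlap on it. The second TNC probe set, 216005_at with a mean of 8.03, gave 0.90 (SE 0.15, 1.86-fold), against 0.62 for the one used. VIM has 1 probe set, whose values of 15.08 to 15.25 also lie at the top of the scale, so a change in VIM could be compressed there, which was not tested.

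**Figure D3:**
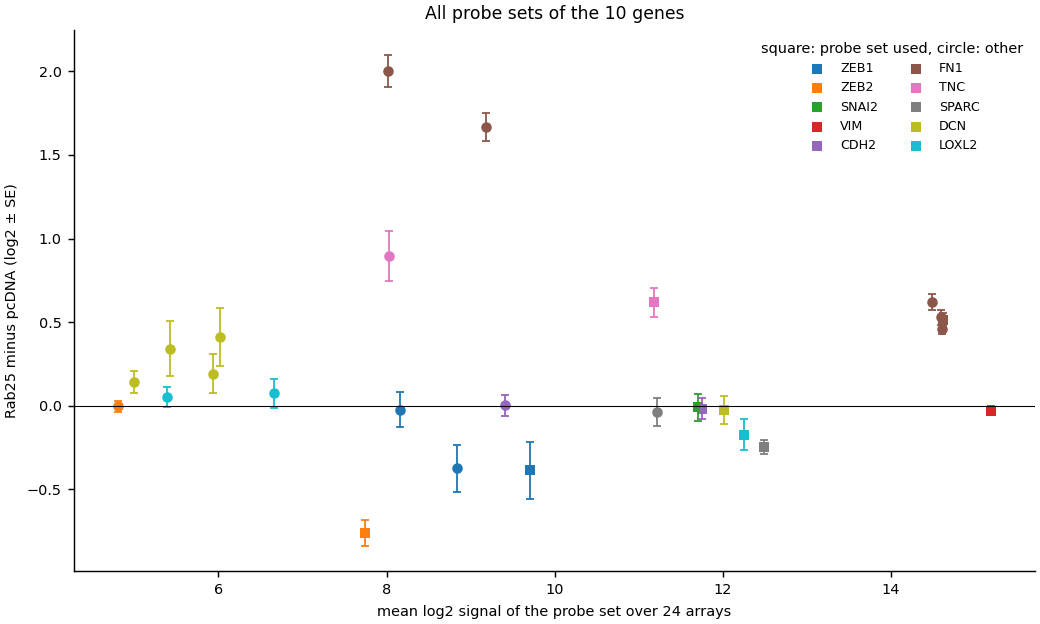
Fitted Rab25 minus pcDNA difference ± SE (vertical axis, log2) against the mean log2 signal over 24 arrays (horizontal axis) for the 27 probe sets of the 10 genes (squares are the probe sets used, circles the others). The FN1 probe sets give 1.67 and 2.00 at mean signals of 9.18 and 8.02, and 0.46 to 0.62 at mean signals of 14.49 to 14.63.

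ZEB1 also differed by probe set. The one used, 208078_s_at, had r = 0.18 with 212758_s_at and r = 0.41 with 210875_s_at. On 212758_s_at, starved Rab25 cells had 7.88, 8.81, 8.79 and 7.89, against 9.26, 9.56, 9.52 and 9.01 in starved pcDNA cells. All starved Rab25 arrays were below all starved pcDNA arrays on it, by -0.99 (SE 0.23, adjusted p = 0.00882), where the probe set used gave -0.19 (SE 0.29, adjusted p = 0.727). Over the 5 conditions 212758_s_at gave -0.37 (SE 0.14, adjusted p = 0.0653) and 210875_s_at -0.02 (SE 0.10).

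Of 52 measured genes of 56 in a list of other mesenchymal genes, 10 were higher in Rab25 cells, 14 lower and 28 not called, with a median difference of -0.01 where the median over all genes was -0.01. COL5A1, a fibrillar collagen gene, fell by 2.40 (SE 0.14) and FBLN1, which encodes the matrix protein fibulin-1, by 1.08 (SE 0.10), while TAGLN and ACTA2, of the smooth muscle cytoskeleton, were higher by 1.29 (SE 0.14) and 0.52 (SE 0.06). Without both Rab25 FBS arrays 6 were higher and 14 lower. Of 37 measured epithelial genes of 45, 8 were higher, 4 lower and 25 not called, with a median of 0.05. The desmosome genes DSP and DSC2 went apart, at 1.56 (SE 0.14) and -0.50 (SE 0.07), and the tight junction genes TJP1 and PATJ had differences of 0.22 (SE 0.04) and 0.26 (SE 0.06). CDH1 had a difference of 0.06 (SE 0.06, adjusted p = 0.53), at signals inside the background range.

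TGF beta was followed as the inducer of the programme. Its direct target PMEPA1, a feedback inhibitor of the pathway, rose by 2.07 (SE 0.16, adjusted p = 3.69e-06), 4.19-fold, and SMAD7, the inhibitory SMAD, by 0.64 (SE 0.12, adjusted p = 0.0109). Of the 10 mesenchymal genes 1 passed the threshold, ZEB2, which fell, where 1.60% of all genes passed and 0.754% fell. CDH2 was above starved cells on every array but short of the threshold.

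ZEB2 was at 7.27 and 6.99 in Rab25 cells with TGF beta, against 7.57, 7.83, 7.24 and 7.24 in starved Rab25 cells. In pcDNA cells it was at 8.10 and 7.44 with TGF beta, against 8.48, 8.95, 8.04 and 8.03 in starved cells. It was lower within each line and experiment, by -0.61 to -0.25, although the pooled arrays overlapped. The fitted change was -0.47 (SE 0.11, limma adjusted p = 0.0418; without the experiment as replicate block, adjusted p = 0.91). The call was lost in 11 of the 24 fits without 1 array (adjusted p up to 0.235, without pcDNA TGF beta replicate 2), with quantile normalization (0.0632) and with centring on array medians (0.0553).

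CDH2 was at 12.18 and 12.08 in Rab25 cells with TGF beta, against 11.59, 11.74, 11.63 and 11.78 in starved Rab25 cells. In pcDNA cells it was at 12.03 and 11.97, against 11.61, 11.58, 11.92 and 11.94 in starved cells. The 4 treated arrays were above the 8 starved arrays, as held in either direction for 1.09% of all genes. The change was 0.34 (SE 0.09, adjusted p = 0.0641). In the fits of each experiment alone every treated group held 1 array, so their p-values are not given. The CDH2 change was called in 2 of the 24 fits without 1 array (changes of 0.29 to 0.40). It was not called without the replicate block (limma adjusted p = 0.228). It passed with both scalings (0.37 and 0.40, adjusted p = 0.028 and 0.0211) and on a second probe set, 203441_s_at, over all probe sets (0.38, SE 0.09, adjusted p = 0.0484). Its smallest response was 0.04, in pcDNA cells of experiment 2, and the others were 0.38 to 0.52.

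The other 8 genes had fitted changes with TGF beta of -0.22 (TNC) to 0.22 (SNAI2) and adjusted p of 0.552 to 0.993. FN1 was higher with TGF beta in the 4 sets of line and experiment, by 0.03 to 0.19, and VIM differed by at most 0.03. No member passed in Rab25 cells or in pcDNA cells alone, where 0.494% and 0.276% of all genes did. The response of ZEB2 differed between Rab25 and pcDNA cells by 0.26 (SE 0.22) and that of CDH2 by 0.21 (SE 0.17), each with an adjusted p of 1 and with 0 genes called in that comparison (622, or 5.21%, at an unadjusted p under 0.05 in limma).

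Around them 10 of 16 measured TGF beta targets rose and 0 fell, with a median of 0.54 where the median over all genes was -0.02. NEDD9, a focal adhesion scaffold, rose by 2.38 (SE 0.29), LTBP2, a latent TGF beta binding protein family member, by 0.64 (SE 0.08) and TGFBI, a secreted matrix protein, by 1.29 (SE 0.16). Of the 52 other mesenchymal genes 6 rose and 1 fell. They included the protease gene FAP at 1.92 (SE 0.25), TAGLN at 1.63 (SE 0.21) and COL5A1 at 1.07 (SE 0.21). Of the 37 epithelial genes 0 passed in limma, with a median of -0.01.

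EGF called none of the 10 genes and 0 of all genes in limma, with 811 genes (6.79%) and 0 members at an unadjusted p under 0.05. For EGF and IGF, 0 genes had a response that differed between the lines in limma (415 and 253 at an unadjusted p under 0.05). Fitted member changes were -0.07 (FN1, LOXL2) to 0.17 (SNAI2, SE 0.12). IGF called none of them either, where 2.71% of all genes passed, with changes of -0.33 (ZEB1, SE 0.25) to 0.26 (SNAI2, SE 0.12). Those 2 genes responded to IGF differently in the 2 experiments, as described after FBS.

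**Figure D4:**
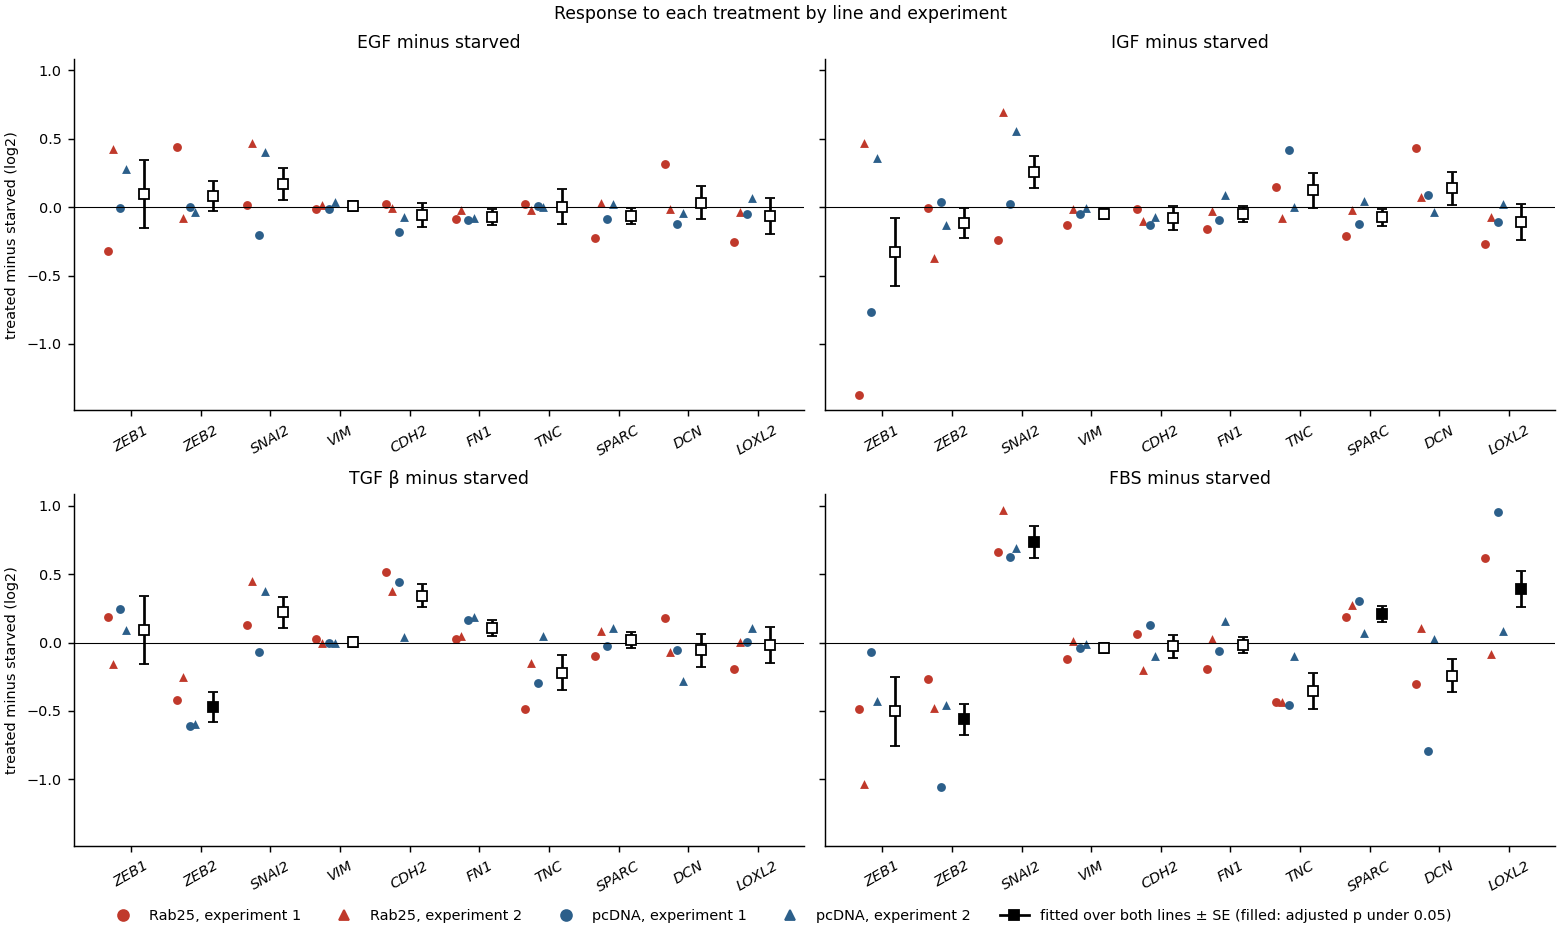
Treated minus starved log2 signal (vertical axes) for each gene (horizontal axes) under EGF, IGF, TGF beta and FBS, for each line (colour) and experiment (symbol), with the change fitted over both lines ± SE (squares, filled where the adjusted p was under 0.05). ZEB2 lies below 0 in the 4 sets under TGF beta (-0.61 to -0.25) and FBS, SNAI2 above 0 in the 4 sets under FBS (0.62 to 0.97), and ZEB1 and LOXL2 separate by experiment under IGF and FBS.

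FBS gave the most member calls of the 4 treatments, as it did over all genes. Of the 10 genes 4 passed over both lines, where 17.2% of all genes did: SNAI2, SPARC and LOXL2 rose and ZEB2 fell, against 6.43% of all genes that rose and 10.8% that fell. Among the repressor genes SNAI2 rose and ZEB2 fell, while ZEB1 did not pass.

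SNAI2 was at 12.05 and 12.46 in Rab25 cells with FBS, against 11.45, 11.33, 11.60 and 11.38 in starved Rab25 cells. In pcDNA cells it was at 12.08 and 12.28, against 11.43, 11.49, 11.55 and 11.62. The 4 FBS arrays were above the 8 starved arrays, a separation seen for 2.72% of all genes and for no other member. The change was 0.74 (SE 0.12, limma adjusted p = 0.000568), 1.66-fold, with 0.83 in experiment 2 alone and 0.64 in experiment 1 alone, where each treated group held 1 array. It passed in Rab25 cells alone (0.81, SE 0.16, adjusted p = 0.00787), where 7.72% of all genes passed, and in pcDNA cells alone (0.66, SE 0.16, adjusted p = 0.0233), where 6.75% did. Without both experiment 1 FBS arrays the change over both lines was 0.66 (adjusted p = 0.0156). The pcDNA call was lost without pcDNA FBS replicate 1 (0.53, adjusted p = 0.359) and without pcDNA starved replicate 2-1 or 2-2 (0.0601 and 0.0508).

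ZEB2 was at 7.43 and 6.76 in Rab25 cells with FBS and at 7.66 and 7.58 in pcDNA cells with FBS. All FBS arrays of pcDNA cells were below their 4 starved arrays (8.03 to 8.95), and those of Rab25 cells overlapped theirs (7.24 to 7.83). The change over both lines was -0.56 (SE 0.11, adjusted p = 0.00267), with -0.75 (SE 0.16, adjusted p = 0.00986) in pcDNA and -0.37 (SE 0.16, adjusted p = 0.157) in Rab25 cells. The response in Rab25 cells minus that in pcDNA cells was 0.38 (SE 0.22, adjusted p = 0.557). Within experiments the change over both lines was -0.47 in experiment 2 and -0.66 in experiment 1. Without both experiment 1 FBS arrays the change was -0.42 and missed the threshold (adjusted p = 0.06), and without pcDNA FBS replicate 1 the pcDNA change was -0.46 (adjusted p = 0.336).

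SPARC rose by 0.21 (SE 0.06, adjusted p = 0.0236), with responses of 0.07 to 0.31 in the 4 sets. Without pcDNA FBS replicate 1 it was 0.14 (adjusted p = 0.219) and without Rab25 FBS replicate 1 it was 0.19 (adjusted p = 0.0921), so its call needed both experiment 1 FBS arrays. LOXL2 was at 12.57 and 12.38 in Rab25 cells with FBS, against 12.03, 11.86, 12.47 and 12.46 in starved Rab25 cells. In pcDNA cells it was at 12.92 and 12.60, against 11.93, 12.00, 12.53 and 12.51. The high arrays were those of experiment 1, with responses of 0.62 in Rab25 and 0.95 in pcDNA cells. The fitted change of 0.39 (SE 0.13, adjusted p = 0.0487) was lost in 22 of 24 fits without 1 array, and without both experiment 1 FBS arrays it was -0.05 (adjusted p = 0.713). A second LOXL2 probe set, 202997_s_at, with a mean of 6.66, gave 0.47 (SE 0.13, adjusted p = 0.0204). In pcDNA cells alone the 2 members that passed were SNAI2 and ZEB2, where 6.75% of all genes passed, so neither SPARC nor LOXL2 did.

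Of the members not called, TNC had a change of -0.35 (SE 0.13, adjusted p = 0.0675) and ZEB1 of -0.50 (SE 0.25, adjusted p = 0.18). FN1, CDH2 and VIM had changes of -0.04 to -0.02. No member's FBS response differed between the lines past the threshold, where 0.209% of all genes did. In the list of other mesenchymal genes 19 of 52 rose and 1 fell, with a median of 0.20 where the median over all genes was -0.03, and without both experiment 1 FBS arrays 8 rose and 0 fell, with a median of 0.01. COL3A1, COL1A2 and COL6A3 had the lowest p-values in the list, with changes of 3.22 (SE 0.26), 1.93 (SE 0.25) and 1.98 (SE 0.26). In Rab25 cells alone these 3 changed by 6.67 (SE 0.36), 4.25 (SE 0.35) and 3.22 (SE 0.37), and in pcDNA cells alone none of them passed. The stromal marker COL3A1 was at 12.8 on Rab25 FBS replicate 1 and at 5.04 to 6.60 on the 22 arrays outside Rab25 FBS. The response of COL3A1, COL1A2, LUM and POSTN was larger in Rab25 than in pcDNA cells, by 4.15 to 6.91. TWIST1, an EMT transcription factor, rose by 0.46 (SE 0.06). In pcDNA cells alone the called genes of the list were TWIST1 (0.58, SE 0.09), ITGA5 (0.41, SE 0.11) and LOX (-0.75, SE 0.17). Of the 37 epithelial genes 2 rose, AP1M2 at 0.20 (SE 0.05) and KRT19 at 1.39 (SE 0.46). KRT19 changed by 2.69 (SE 0.64) in Rab25 cells alone. It was not called in pcDNA cells alone, where AP1M2 was (0.28, SE 0.07). The part that the other cell types' markers take in these values was not tested.

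The experiments were compared within starved cells and by the size of each response. In starved cells 6 of the 10 genes differed between experiment 2 and experiment 1, 1 higher and 5 lower, where 31.3% of all genes differed, 14.8% higher and 16.6% lower. LOXL2 was at 12.47, 12.46, 12.53 and 12.51 in experiment 2 (Rab25, then pcDNA), against 12.03, 11.86, 11.93 and 12.00 in experiment 1, a difference of 0.54 (SE 0.05, limma adjusted p = 5.19e-06) with no overlap. No overlap was found for 3 of the 10 genes, ZEB1, DCN and LOXL2, and for 24.0% of all genes. The genes that were lower in experiment 2 were ZEB1 by -0.65 (SE 0.11), ZEB2 by -0.57 (SE 0.12), TNC by -0.57 (SE 0.13), DCN by -0.51 (SE 0.07) and FN1 by -0.21 (SE 0.06). The ZEB1 difference was -0.07 and -0.06 on its other probe sets. The DCN probe set used had r = 0.98 with the gene SSR1, which differed by -0.49 (SE 0.06). It did not follow the other DCN probe sets, as described below, so its difference is that of the probe set. The FN1 call was lost without pcDNA starved replicate 1-1, 1-2 or 2-2 (adjusted p of 0.0506 to 0.0691) and with centring on array medians (-0.16, adjusted p = 0.138).

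The IGF response differed between the experiments for ZEB1 and SNAI2, 2 of the 10 genes, where 1.42% of all genes differed. ZEB1 was at 9.78 in Rab25 and 10.02 in pcDNA cells with IGF in experiment 2, above the starved arrays of that experiment (9.23 to 9.68). It was at 8.75 in Rab25 and 9.39 in pcDNA cells with IGF in experiment 1, below the starved arrays there (10.06 to 10.24). The responses differed by 1.48 (SE 0.18, adjusted p = 0.00184), and on the other probe sets 212758_s_at and 210875_s_at they differed by -0.11 (SE 0.44) and 0.27 (SE 0.19). SNAI2 with IGF was at 12.19 in Rab25 and 12.15 in pcDNA cells in experiment 2 and at 11.15 in Rab25 and 11.48 in pcDNA cells in experiment 1, with starved arrays at 11.33 to 11.62 throughout. Its responses differed by 0.74 (SE 0.13, adjusted p = 0.013). Without either Rab25 IGF array both calls were lost, with values of 1.28 (adjusted p = 0.0698) for ZEB1 and 0.55 (adjusted p = 0.239) for SNAI2. For EGF and TGF beta 0 members differed between the experiments, where 0.0838% and 0.402% of all genes did. SNAI2 responses to EGF were still 0.47 and 0.40 in experiment 2 (Rab25, then pcDNA), against 0.01 and -0.20 in experiment 1. With TGF beta they were 0.45 and 0.38, against 0.13 and -0.07, so the larger SNAI2 response in experiment 2 was not particular to IGF.

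For FBS the response differed between the experiments for LOXL2, by -0.79 (SE 0.09, adjusted p = 5.77e-05), and for the DCN probe set used, by 0.61 (SE 0.12, adjusted p = 0.00288), where 22.5% of all genes differed. Both have the shift of the experiment 1 FBS arrays towards experiment 2 beside them. LOXL2, higher in starved cells of experiment 2, was high in the experiment 1 FBS arrays, and DCN, lower in experiment 2, was low there.

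DCN encodes decorin, a small proteoglycan of fibroblasts, and the signal read for it did not follow its other probe sets. The one used, 201894_s_at, had signals of 11.55 to 12.55 and correlated over the 24 arrays at r = 0.98 with the 3 probe sets of SSR1, a subunit of the translocon-associated complex. With the other 4 DCN probe sets its r was -0.21 to -0.15. Those 4 correlated with one another at 0.77 to 0.97 and were low on 22 arrays. Probe set 201893_x_at was at 8.94 and 6.63 on the Rab25 FBS arrays and at 5.69 to 6.16 on the others. Probe sets 211813_x_at and 211896_s_at were at 7.91 and 7.80 on Rab25 FBS replicate 1, against 5.13 to 5.49 and 5.61 to 5.98 on the 22 others. On 201893_x_at the FBS change in Rab25 cells was 1.91 (SE 0.35, adjusted p = 0.0054), where the one used gave -0.10 (SE 0.17). The DCN values of 201894_s_at are therefore given as those of the probe set, and the other DCN probe sets do not follow them.

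**Figure D5:**
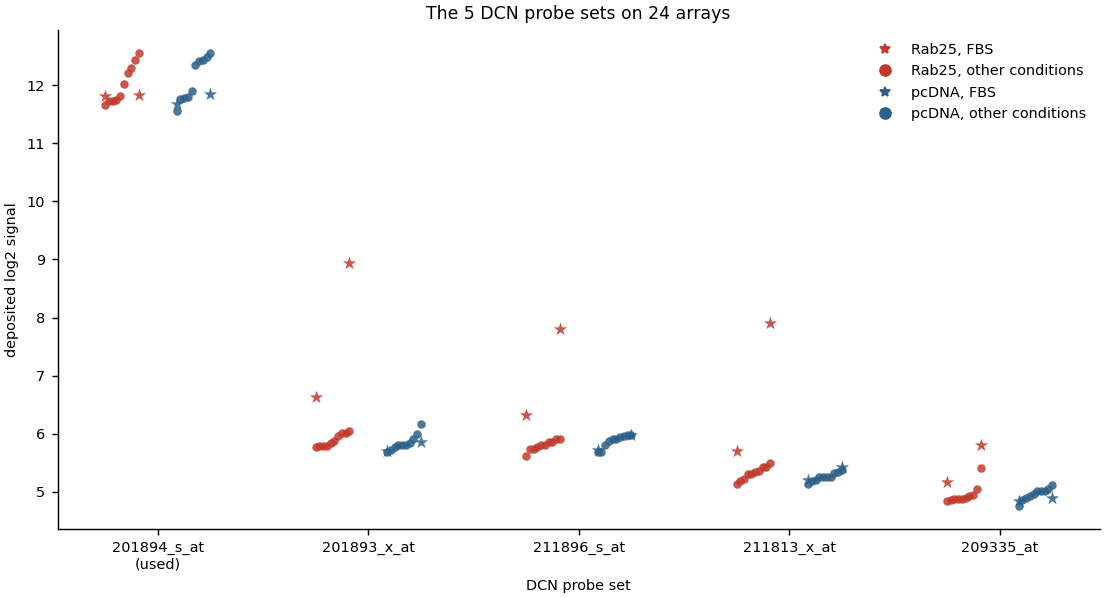
Deposited log2 signal (vertical axis) of the 5 DCN probe sets (horizontal axis) on 24 arrays, Rab25 left of pcDNA, with FBS arrays as stars. The probe set used lies at 11.55 to 12.55 in both lines, while the other 4 are low except on the Rab25 FBS arrays, where 201893_x_at reached 8.94 and 6.63.

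Across the 24 arrays the members did not vary as one group. Pearson's r is given as a description over arrays that share lines and experiments. It was -0.87 between TNC and SPARC, 0.79 between SPARC and LOXL2 and 0.76 between FN1 and TNC. Between LOXL2 and the DCN probe set used, which did not follow the other DCN probe sets, it was -0.91. The genes outside the set most like each member had r of 0.84 to 0.98, and 0.80 for ZEB1. CDH2 was closest to PTPRK (0.85), FAP (0.84) and TGFBI (0.80), and SPARC to VAMP5 (0.91), P3H2 (0.91) and FBLN1 (0.90). FN1 was closest to CYFIP2 (0.96), TNC to GSDME (0.94), ZEB2 to MEX3C (0.95), SNAI2 to RRP1B (0.90), VIM to HMGA2 (0.84), LOXL2 to SUMO3 (0.96), DCN to SSR1 (0.98) and ZEB1 to BCR.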

How the data were processed

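Values of 24 Affymetrix HT-HG_U133A Early Access arrays were used. Deposited by the authors were log2 values of 22930 probe sets an array, of which 524 were controls. MAS5 and RMA are named, with no version or role, per the submitters' processing notes, and the steps between scan and value are not given in the sources used here. A single symbol was given for 19415 probe sets, several for 125 and none for 2866, from GEO's platform annotation. All had been hybridised as 1-colour arrays, whose number limits the precision, and no depth applies.

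Genes were fitted with limma 3.58.1 (lmFit, eBayes) in R 4.3.3 over all 11940 genes, with 10 groups and the experiment as replicate block (13 residual and 3.51 prior degrees of freedom), and with treatment by experiment terms (9 residual degrees of freedom) for comparisons of the experiments. The labels give the experiment of every array, and the shift between experiments had a median r of 0.66 over the 45 pairs of groups (0.092 to 0.86), so the experiments pair the arrays. P-values were adjusted by Benjamini and Hochberg's method across the 11940 genes, or across the 19415 probe sets for probe sets not used for the gene, and 0.05 was the threshold. The fit was tested on simulated data. The members and lists were chosen with earlier results of these data known. Named beside the 10 members were RAB25, PMEPA1 and SMAD7 as checks, up to 4 called genes of lowest p of a described list, the 3 genes of highest r with each member, other probe sets whose sign or call differed, and the cell type markers. COL1A2, LUM, POSTN, PAX8, MUC16 and the other markers quoted were taken from the marker lists after their values were seen. Alternatives were no block, quantile normalization, centring on array medians, the median of probe sets, array weights, leaving out the lowest 40% of genes, each experiment alone, each array left out, both Rab25 FBS arrays left out, and, chosen after seeing the data, both experiment 1 FBS arrays left out. In the fits of each experiment alone every treated group held 1 array, so the spread rested on the starved pairs.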

Additional observations from a re-analysis of the deposited data

Results flagged for a closer look

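The response to IGF differed between the experiments by a test of the difference for ZEB1 (1.48, limma adjusted p = 0.00184) and SNAI2 (0.74, adjusted p = 0.013), experiment 2 minus experiment 1 on the log2 scale. The response to FBS differed between them for LOXL2 (-0.79, adjusted p = 5.77e-05) and for the DCN probe set used (0.61, adjusted p = 0.00288), which the other DCN probe sets did not follow. Exposure time, where the labels conflict, and experiment cannot be told apart in all 4.

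Signal was seen in probe sets that the comparisons do not use. On Rab25 FBS replicate 1 the DCN probe sets 201893_x_at, 211813_x_at and 211896_s_at were at 8.94, 7.91 and 7.80, against highest values of 6.01, 5.43 and 5.97 on the 8 starved arrays. None of the 20 sets of 4 starved arrays had an array far from the other 3 for any member.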

How the results depend on the processing

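Of 26 member results called, with 861 alternatives, 766 kept call and direction, 90 lost the call (57 of them with 1 array left out) and 5 turned direction. The line differences of FN1, TNC and ZEB2 over the 5 conditions kept theirs in all 35 alternatives. Without the replicate block the members called were 1 in place of 4 between the starved lines, where 6.11% of all genes passed. They were 0 in place of 1 for TGF beta (0.461% of all genes), 1 in place of 4 for FBS, 0 in place of 1 for FBS in Rab25 cells and 0 in place of 2 for FBS in pcDNA cells. In each experiment alone every treated group held 1 array, so member counts from those fits are not given. The highest FBS shares of all genes given below, over both lines and in each line, come from experiment 1 alone. With treatment by experiment terms the members called were 2 for IGF (10.9% of all genes), 2 for TGF beta (4.17%), 7 for FBS, and 4 for FBS in each line. With array weights they were 1 for FBS (3.07% of all genes), 1 for TGF beta in pcDNA cells (2.20%) and 0 for FBS in each line. With the median of probe sets they were 2 for TGF beta, 3 for FBS in Rab25 cells and 1 in place of 2 for the IGF difference between experiments. Without the lowest 40% of genes, and without both Rab25 FBS arrays, 2 were called for TGF beta. Without both experiment 1 FBS arrays they were 2 for TGF beta, 1 for FBS and 0 for FBS in pcDNA cells. With 1 array left out the counts ran from 0 to 2 for TGF beta, 2 to 6 for FBS, 1 to 2 for FBS in Rab25 cells, 0 to 5 for FBS in pcDNA cells and 0 to 2 for the IGF difference between experiments. Directions turned for ZEB1 with IGF in experiment 2 alone (0.41), for LOXL2 with FBS in experiment 2 alone (-0.000395) and without both experiment 1 FBS arrays (-0.049). With the median of probe sets they turned for DCN with FBS over both lines (0.65), in Rab25 cells (1.34), between experiments (-0.81) and in starved cells between experiments (0.00612), and for ZEB1 with IGF between experiments (-0.0284). The ZEB1 change with IGF over both lines and the DCN changes with FBS over both lines and in Rab25 cells were not called in the main fit. These are not among the 5. Over all genes the share called ran from 13.9% (no block) to 38.6% (lowest 40% left out) between the lines, 6.11% to 27.4% between the starved lines, 0% to 0.888% for EGF, 0.0838% to 10.9% for IGF, 0.461% to 4.17% for TGF beta and 3.07% to 34.4% for FBS. It ran from 0.0586% to 2.41% for TGF beta and 0.335% to 20.1% for FBS in Rab25 cells, 0.0251% to 2.20% and 0.469% to 25.8% in pcDNA cells, and 0.0419% to 1.69% for the FBS response between lines. Between experiments it ran from 0.109% to 4.44% for IGF, 0.00838% to 0.223% for EGF, 0.0586% to 0.768% for TGF beta, 12.8% to 40.6% for FBS and 26.6% to 54.5% in starved cells. Of genes called between the lines 37.1% were higher in Rab25 cells, 50.2% with quantile normalization and 66.1% with centring on array medians. Centring moved the FBS response between experiments by 0.12. The cause of these shifts was not tested. Signals at the top of the scale (VIM, FN1) and near background limit what could be measured.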
